A study of Mus musculus with 6 samples.

Results

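Hepatic stellate cells are liver pericytes that store vitamin A, and the RNA for their proteasome subunits was measured here with and without obeticholic acid (OCA), an agonist of the bile acid receptor FXR. The 43 subunit genes were chosen by symbol, as the protein-coding genes named Psma, Psmb, Psmc, Psmd or Psme and a number, out of 24940 genes in the exon count table. They comprised 8 Psma, 11 Psmb, 6 Psmc, 14 Psmd and 4 Psme genes, and each had a single genomic copy in the table. Primary cells from wild-type female C57BL/6JBomTac mice were used 2 days after isolation. One group of 3 libraries received 10 µM OCA and the other 3 received an equal volume of its solvent, dimethyl sulfoxide (DMSO, 1:1000). After 3 h, vasoactive intestinal peptide (VIP, 500 nM), a neuropeptide, was added to all 6 cultures for 3 h more. The comparison was thus between OCA and its solvent in the presence of VIP and held nothing on VIP itself. The groups are called OCA+VIP and DMSO+VIP. The labels did not say whether libraries came from separate animals, so the spread between them may be technical in part, and the age of the mice was not given.

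The proteasome is the barrel-shaped protease that degrades proteins tagged with ubiquitin. Its 20S core is a stack of rings of alpha subunits (Psma genes) and beta subunits (Psmb genes), and 3 of the beta subunits, encoded by Psmb5, Psmb6 and Psmb7, cut peptide bonds. The 19S cap docks on the core, where its ring of ATPases (Psmc genes) unfolds the substrate and its other subunits (Psmd genes) bind and remove ubiquitin. Interferon can exchange the 3 catalytic subunits for Psmb8, Psmb9 and Psmb10, which form the immunoproteasome, and the Psme genes encode alternative caps. Cells keep the subunits in proportion, and the transcription factor NRF1, encoded by Nfe2l1, raises their genes together when proteasome activity falls, through antioxidant response elements in their promoters.

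Counts summed to between 2.84e+06 and 4.57e+06 per DMSO+VIP library and between 4.53e+06 and 9.95e+06 per OCA+VIP library. Low counts lay mostly near multiples of 3 (within 0.5), in 82.9% to 87.5% of cases in the DMSO+VIP libraries. The number of independent fragments may therefore be smaller than these totals. Some counts without steps would also lie that near, and their share was not measured. OCA+VIP library 2 stood apart: it was the deepest and the least stepped, with 65.4% of its low counts near such multiples against 84.4% and 84.6% in the other two OCA+VIP libraries. Stellate cell markers were detected in every library, with the summed level of the 12 listed genes at 1598 to 1820 CPM (counts scaled to a common library total, per 1e+06) in DMSO+VIP and 1323 to 1403 CPM in OCA+VIP, and 2 of them were called higher and 3 lower with OCA. The 14 listed hepatocyte genes summed to 176 to 202 CPM in DMSO+VIP and to 300.2 to 471 CPM in OCA+VIP, with 8 of 11 tested genes called higher, 1 lower and 1 of the 14 at 0 in all libraries. Their part in the subunit values was not tested. Of all tested genes, 5.72% were called higher and 6.04% lower. The 18 leukocyte genes summed to between 0 and 22.1 CPM in DMSO+VIP and between 14.7 and 16.7 CPM in OCA+VIP, with 1 of the 2 tested genes called higher, and 6 of them, among them Ptprc, Ms4a1 and Cd3e, were at 0 in all 6 libraries. The called leukocyte gene was the B cell marker Cd79a, at 0 in all 3 DMSO+VIP libraries and at 6.06, 3.67 and 8.35 CPM in OCA+VIP (adjusted p = 0.0025 by edgeR). Sums were 1.61 to 6.52 CPM against 4.74 to 10.1 CPM for 7 endothelial genes and 6.16 to 14.9 CPM against 14.7 to 19.8 CPM for 4 cholangiocyte genes, with 1 of each list at 0 in all libraries and none of the 1 and 2 tested genes called.

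The 14 genes of the standard core (Psma1 to Psma7 and Psmb1 to Psmb7) and the 20 genes of the cap were expressed in all 6 libraries, while the inducible and tissue-restricted subunits were far lower. To compare genes, counts were scaled to the library total and to exon length (CPM per kb) and averaged over the 6 libraries. Core genes ranged from 62.8 CPM per kb for Psma3 to 346 for Psma6, a 5.51-fold span. The 6 cap ATPase genes lay within 1.53-fold of each other, from 187 CPM per kb for Psmc6 to 285 for Psmc3. The Psmd genes were more uneven, from 34.04 CPM per kb for Psmd5 to 310 for Psmd8. The 3 lowest cap genes were those that encode chaperones of cap assembly and not subunits of the finished particle, with Psmd5 at 34.04, Psmd10 at 37.2 and Psmd9 at 41.9 CPM per kb, and the next, the scaffold subunit Psmd1, stood at 71.6. That grouping was noticed after the values were seen. The caps of the Psme family were lower than most core genes, with Psme3 at 51.1, Psme2 at 26.4, Psme4 at 24.1 and Psme1 at 18.9 CPM per kb. Psmb10, Psmb8 and Psmb9 averaged 6.52, 3.70 and 2.09 CPM per kb.

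**Figure D1:**
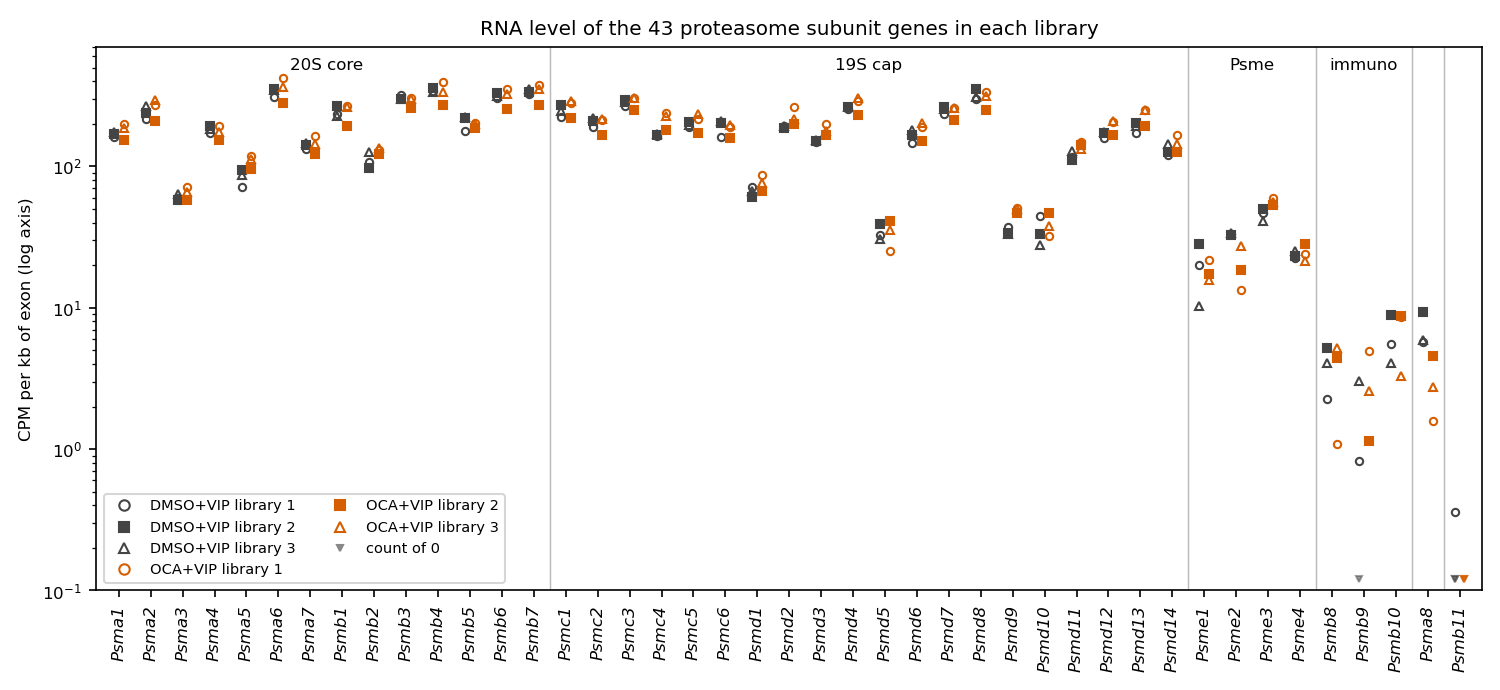
RNA level of each of the 43 subunit genes in each library, in CPM per kb of exon on a log axis, by structural class; grey symbols are DMSO+VIP and orange symbols OCA+VIP, and downward triangles at the lower edge mark a count of 0. Core and cap genes lie between 34.04 and 346 CPM per kb on average, while the immunoproteasome genes, Psma8 and Psmb11 lie far below them.

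Of the 41 tested subunit genes, 1 was called higher with OCA, the assembly chaperone gene Psmd9, and none was called lower. Calls were made by edgeR's quasi-likelihood test at an adjusted p under 0.05. By the same rule, 11.8% of the 11286 genes tested in the whole data set were called, 5.72% higher and 6.04% lower. Psmb9 and Psmb11 were too low to be tested. Before adjustment, 5 members were higher (Psma5, Psmc4, Psmd3, Psmd9 and Psme3) and 2 lower (Psma8 and Psme2), against 12.9% and 13.1% of all tested genes. The 3 OCA+VIP libraries were all above the 3 DMSO+VIP libraries for 7 members, which were the first 5 and Psmd2 and Psmd11, and all below them for Psma8 and Psme2. The background for such separation was 16.8% of tested genes upward and 13.9% downward, close to the 17.1% of members upward. DESeq2 called Psmc4 and Psmd9 higher and Psma8 and Psme2 lower, beside 9.14% of all genes higher, 9.02% lower and 18.2% in either direction. limma-voom called Psmd9 higher and Psme2 lower, beside 5.74% of all genes higher, 6.63% lower and 12.4% in either direction.

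The median log2 fold change, OCA+VIP over DMSO+VIP, of the 34 core and cap genes was 0.08, and that of all tested genes was 0.00. Their middle spread was narrow, with an interquartile width of 0.22 on the log2 scale against 0.58 for all tested genes, beside a median standard error of 0.14 against 0.21. For 12 of 14 core genes and 14 of 20 cap genes the 95% interval of the log2 fold change lay within 0.5 of 0 on both sides, and 27 of the 41 tested members met that bound, against 23.0% of all tested genes. Together the 34 genes took 0.847%, 0.910% and 0.908% of all counts in the DMSO+VIP libraries and 1.03%, 0.814% and 0.987% in the OCA+VIP libraries. The means were 0.888% ± 0.036 and 0.944% ± 0.115 (SD, n = 3 each), and the groups overlapped, because OCA+VIP library 2 held the lowest share of all 6 libraries while the other two OCA+VIP libraries held the highest.

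**Figure D2:**
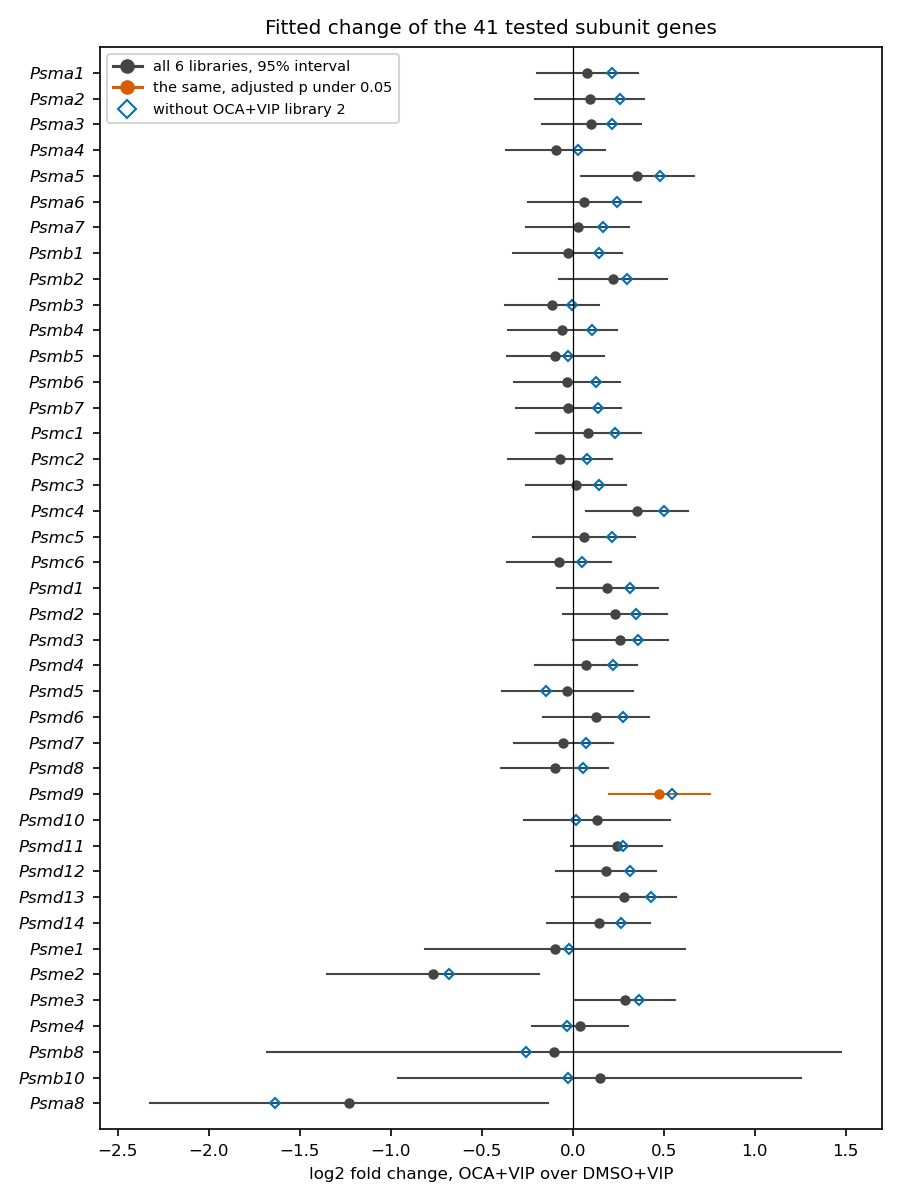
Log2 fold change of each tested subunit gene, OCA+VIP over DMSO+VIP, with its 95% interval from the fit to all 6 libraries (filled circles) and its value without OCA+VIP library 2 (open diamonds); orange marks an adjusted p under 0.05. Most intervals of core and cap genes cross 0, Psmd9 at 0.48 is the called gene, and the open diamonds of most core and cap genes lie to the right of the filled circles.

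OCA+VIP library 2 was low across the core and most of the cap. It was the lowest of the 3 OCA+VIP libraries for 14 of 14 core genes and 17 of 20 cap genes, against 21.9% of all tested genes, and the lowest of all 6 for 10 core and 8 cap genes, against 7.95%. Deviations of log2(CPM + 1) from each gene's mean over the 6 libraries had a median of -0.21 for the core in that library, of 0.18 and 0.09 in OCA+VIP libraries 1 and 3, and of -0.08, 0.01 and 0.02 in DMSO+VIP libraries 1, 2 and 3. For the cap the medians were -0.11 in OCA+VIP library 2, 0.14 and 0.10 in the other two, and -0.12, -0.04 and -0.03 in the DMSO+VIP libraries. Gene length moved with this library too. The median deviation there was 0.03 in the shorter genes of all those tested (55 to 2196 exon bases), 0.12 in those of 2197 to 3831 bases and 0.19 in longer ones, at about equal numbers of genes. Of the 34 core and cap genes, 30 were in the shortest class, where their own median deviation in that library was -0.20. Whether length, depth or counting set the low values of that library was not tested.

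Because OCA+VIP library 2 was the lowest of its group for most core and cap genes, leaving it out had to raise most of their fold changes. The values that follow are therefore no separate evidence of a rise. Without that library, 31 of the 34 core and cap genes had a positive log2 fold change, compared with 22 of 34 with it. Among all tested genes, 49.4% were positive without it and 50.1% with it. The median of the 34 genes rose to 0.22, while that of all tested genes was -0.01. By class, the median went from 0.00 to 0.15 for the core and from 0.13 to 0.25 for the cap, and the difference between core and cap was not tested. In that fit 7 members were called higher by edgeR's quasi-likelihood test, against 6.44% of all genes tested, and none lower, against 6.34%, with 12.8% called in either direction. Their adjusted p was 0.036 for Psma5, 0.0018 for Psmc4, 0.046 for Psmd12, 0.0065 for Psmd13, 0.022 for Psmd2, 0.021 for Psmd3 and 0.013 for Psmd9. Of those 7 genes, 6 belonged to the cap. Without OCA+VIP library 1 or 3 or DMSO+VIP library 2 or 3, by contrast, 0 members were called higher, so the count depended on which libraries were used. In those fits 737, 751, 983 and 972 genes of the whole data set were called in either direction, against 1328 with all 6 libraries. Psmd9 had a log2 fold change of 0.42, 0.47, 0.46 and 0.45 in them, in the same order.

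**Figure D3:**
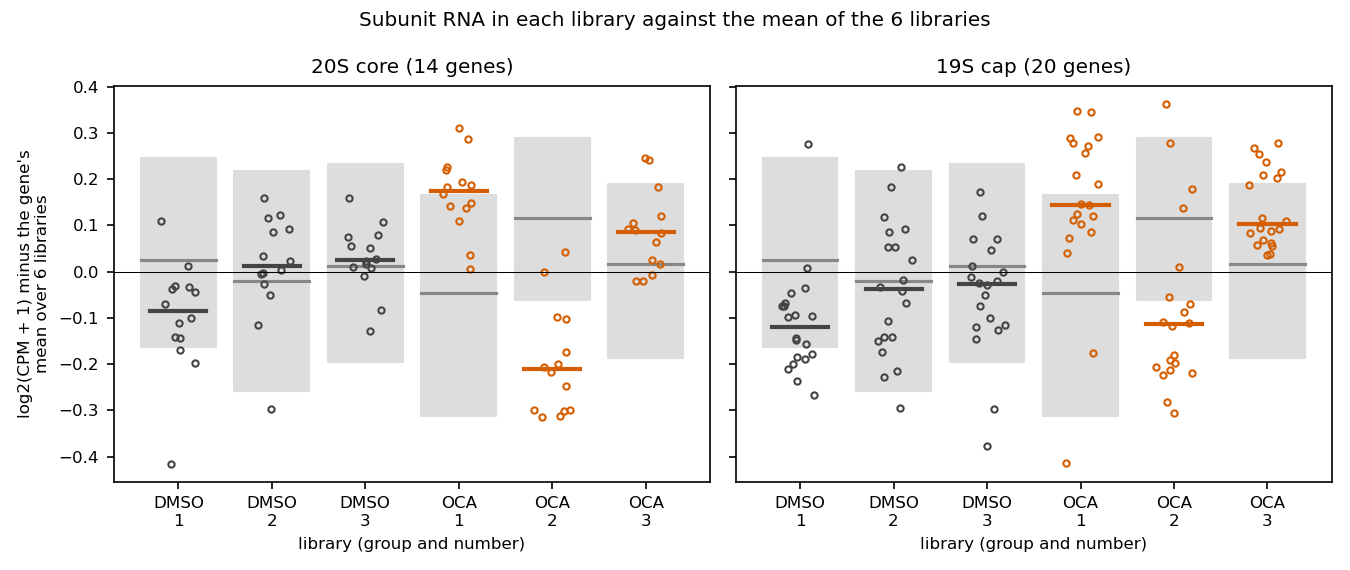
Deviation of log2(CPM + 1) from the gene's mean over the 6 libraries, for the 14 core genes (left) and 20 cap genes (right); each circle is a gene, coloured bars are class medians, and grey boxes with a line are the interquartile range and median of all tested genes. In OCA+VIP library 2 the core median is -0.21 while all genes lie at 0.11, and in OCA+VIP library 1 the core median is 0.18 while all genes lie at -0.05.

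The alpha subunits of the core form its outer rings and gate the entry of substrates. Of Psma1 to Psma7, 6 had a positive log2 fold change, against 50.1% of all tested genes. The median of Psma1 to Psma7 was 0.08. Psma6, the most abundant of them, stood at 308, 347 and 346 CPM in DMSO+VIP and at 414, 276 and 362 CPM in OCA+VIP. Its OCA+VIP libraries lay on both sides of the controls, and its log2 fold change was 0.06 (SE 0.15). Psma5 had the highest log2 fold change of the 20S core, at 86.0, 114.6 and 105 CPM in DMSO+VIP and 143, 114.9 and 136 CPM in OCA+VIP. The lowest OCA+VIP value, in library 2, barely exceeded the highest control value, and the log2 fold change was 0.35 (95% interval 0.04 to 0.67, adjusted p = 0.13 by edgeR). Psma1, Psma2, Psma3, Psma4 and Psma7 lay between -0.09 and 0.10 on the log2 scale. None was called, against 11.8% of all tested genes.

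For the beta subunits, 6 of Psmb1 to Psmb7 had a log2 fold change under 0, while 50.1% of all tested genes were above 0. The median of Psmb1 to Psmb7 was -0.03, and none was called, against 11.8% of all tested genes. Without OCA+VIP library 2 the median was 0.13 and 5 of 7 were positive, against 49.4% of all tested genes. The difference between alpha and beta subunits was not tested. Psmb4, the most abundant of them per exon length and not catalytic, stood at 319, 337 and 314 CPM in DMSO+VIP and at 370, 254 and 314 CPM in OCA+VIP (log2 fold change -0.06). Psmb3 had the lowest value of the standard beta subunits, from 232, 218 and 218 CPM to 220, 186 and 218 CPM, a log2 fold change of -0.11 (95% interval -0.37 to 0.15). Psmb2 was the one with a positive value, from 90.6, 81.4 and 106 CPM to 110, 103 and 114 CPM (log2 fold change 0.22, adjusted p = 0.34 by edgeR), and its groups overlapped. Psmb1 was at -0.03.

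In the 3 catalytic subunits, OCA+VIP library 2 was the lowest of its group. Psmb5, which carries the chymotrypsin-like activity and is the main target of bortezomib, was at 155, 190 and 195 CPM in DMSO+VIP and at 175, 163 and 172 CPM in OCA+VIP. Psmb6, the caspase-like subunit, was at 313, 341 and 323 CPM and then at 365, 261 and 336 CPM. Psmb7, the trypsin-like subunit, was at 313, 320 and 339 CPM and then at 360, 260 and 341 CPM. The OCA+VIP values lay within the range of the controls for Psmb5 and on both sides of it for Psmb6 and Psmb7. The log2 fold changes were -0.09, -0.03 and -0.02, with no gene called, against 11.8% of all tested genes. Over all transcripts in the GENCODE annotation, exons of Psmb7 share 11.8% of their bases with Nek6 on the opposite strand. Those of Psmb5 share 12.1% with the microRNA gene Mir686 on the same strand, where strand would not separate them. Whether the counting used strand was not stated, and whether the shared bases were among those counted was not checked.

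In the ATPase ring of the cap, none of the 6 Psmc genes was called, against 11.8% of all tested genes. Psmc4 had the highest fold change. It lies at chr7:28041702-28050092 and stood at 233, 239 and 243 CPM in DMSO+VIP and at 342, 257 and 322 CPM in OCA+VIP. All 3 OCA+VIP libraries exceeded all 3 controls, although library 2 did so by little. The log2 fold change was 0.36 (SE 0.13, 95% interval 0.08 to 0.63), with an adjusted p of 0.094 by edgeR. Psmc3, the most abundant ATPase gene, was at 431, 478 and 465 CPM and then at 498, 404 and 497 CPM, a log2 fold change of 0.02. Psmc6 was the lowest in fold change, from 250, 312 and 324 CPM to 295, 247 and 306 CPM (log2 fold change -0.08, 95% interval -0.36 to 0.21). Psmc1, Psmc2 and Psmc5 lay between -0.07 and 0.09.

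Of the 14 Psmd genes, 11 had a positive log2 fold change, against 50.1% of all tested genes. The median of the 14 was 0.16. Psmd8, a lid subunit and the most abundant Psmd gene per length, was the lowest of them in fold change, from 452, 527 and 464 CPM to 506, 375 and 476 CPM (log2 fold change -0.10, 95% interval -0.39 to 0.20). The scaffold subunits Psmd1 and Psmd2, the ubiquitin receptor Psmd4, the deubiquitinase Psmd14 and the lid subunits Psmd3, Psmd6, Psmd7, Psmd11, Psmd12 and Psmd13 lay between -0.05 and 0.28. None of these was called, against 11.8% of all tested genes. The highest of these was Psmd13, whose exons over all GENCODE transcripts share 10.1% of their bases with Sirt3 on the opposite strand.

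Psmd9, a chaperone that holds ATPase subunits during assembly of the base of the cap, was the called gene. It lies at chr5:123228190-123250125 and stood at 96.3, 86.6 and 86.5 CPM in DMSO+VIP and at 130, 121 and 128 CPM in OCA+VIP. Every OCA+VIP library exceeded every control, and OCA+VIP library 2 was close to the other two. The means were 89.8 ± 5.61 and 126 ± 5.14 CPM (SD, n = 3 each), which gave a log2 fold change of 0.48 (SE 0.13, 95% interval 0.20 to 0.75) with an adjusted p of 0.022 by edgeR. The call was lost when DMSO+VIP library 2 or 3 or OCA+VIP library 1 or 3 was left out, with adjusted p = 0.062, 0.082, 0.10 and 0.085. Over all transcripts in the GENCODE annotation, the exons of Psmd9 share 25.5% of their bases with the noncoding gene Gm26745 on the opposite strand. Whether the shared bases were among those counted was not checked. If they were, reads of the pair could not be told apart unless strand was used. The other two base chaperones were not called: Psmd10 had a log2 fold change of 0.13 (SE 0.19) and Psmd5 of -0.03 (SE 0.17).

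Because NRF1 acts through promoter elements, the 250 bases before the start of each gene were searched in the RefSeq promoter table (GRCm38.p6), which held 28 of the 34 core and cap genes and 36 of all 43 members. The core of the antioxidant response element, TGACNNNGC on either strand, occurred in 5 of the 28 windows (17.9%) and in 11.0% of 18062 windows of all genes. The CCAAT box, bound by the factor NF-Y and read as CCAAT on either strand, occurred in 10 of 28 (35.7%) and in 35.9% of all. The 5 matches are shown with their flanks because they sit before the called gene and before 4 genes that were not called, among them the catalytic genes Psmb5 and Psmb6. Capitals mark the match, which lies in reverse orientation (GCNNNGTCA) for Psmd12 and Psmc6, and each sequence reads 5′ to 3′ on the strand of its gene.
Psmd9, chr5:123228133-123228189, plus strand: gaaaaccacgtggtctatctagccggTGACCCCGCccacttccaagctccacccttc
Psmd12, chr11:107479278-107479314, plus strand: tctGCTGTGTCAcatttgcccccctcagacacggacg
Psmb6, chr11:70525322-70525356, plus strand: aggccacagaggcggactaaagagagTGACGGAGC
Psmc6, chr14:45329574-45329630, plus strand: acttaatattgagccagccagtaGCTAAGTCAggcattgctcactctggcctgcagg
Psmb5, chr14:54618009-54618068, minus strand: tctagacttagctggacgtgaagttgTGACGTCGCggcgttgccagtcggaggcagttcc

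The match begins 31 bases before the start in Psmd9, 9 in Psmb6, 47 in Psmb5, 227 in Psmc6 and 247 in Psmd12. Their log2 fold changes were 0.48, -0.03, -0.09, -0.08 and 0.18 in that order, with a median of -0.03, while the 23 genes without a match ranged from -0.11 to 0.36 with a median of 0.09. A match in these letters is a description and was not shown to be a bound site.

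None of the 4 Psme genes, which encode the alternative caps, was called by edgeR, against 11.8% of all tested genes. The 4 genes were not tested against each other. Psme1 and Psme2 encode the partner subunits of the interferon-inducible PA28 ring, and Psme2, at chr14:55587440-55591021, stood at 29.2, 29.1 and 29.9 CPM in DMSO+VIP and at 11.8, 16.3 and 24.0 CPM in OCA+VIP. All OCA+VIP values lay under the tightly grouped controls, and the means were 29.4 ± 0.436 and 17.4 ± 6.18 CPM (SD, n = 3 each). The log2 fold change was -0.77 (SE 0.28, 95% interval -1.35 to -0.19), with an adjusted p of 0.079 by edgeR, 0.026 by DESeq2 and 0.041 by limma-voom. Leaving out 1 library gave log2 fold changes from -0.59 (without OCA+VIP library 1) to -1.07 (without OCA+VIP library 3, the highest of its group). Their adjusted p by edgeR was 0.042 in the latter fit and 0.13 to 0.26 in the other 5. Its partner Psme1 was at 19.5, 27.1 and 9.91 CPM and then at 21.1, 16.8 and 15.2 CPM, overlapping throughout, with a log2 fold change of -0.10 and an adjusted p of 0.90. Psme3, which encodes the nuclear PA28 gamma ring, was at 124, 132 and 109 CPM and then at 159, 141 and 149 CPM, without overlap (log2 fold change 0.29, adjusted p = 0.18 by edgeR). Psme4, which encodes the PA200 cap, was at 143, 150 and 161 CPM and then at 153, 181 and 138 CPM (log2 fold change 0.04).

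The immunoproteasome genes were low in all 6 libraries, and Psmb9 was the lowest of them on average. In OCA+VIP library 1 it was above Psmb8, at 4.97 against 1.09 CPM per kb. Psmb8, at chr17:34198195-34201454, had counts of 12.5, 18 and 18.5 in DMSO+VIP and of 6, 53 and 36.5 in OCA+VIP, which were 2.73, 6.34 and 4.96 CPM and 1.32, 5.33 and 6.29 CPM. Over all GENCODE transcripts its exons share 14.7% of their bases with the antisense gene Gm20496 on the opposite strand. Psmb10, at chr8:105935728-105938392, was at 6.996, 11.3 and 5.09 CPM and then at 10.8, 11.0 and 4.13 CPM. Both genes overlapped between groups, and their intervals were wide: the log2 fold change was -0.10 (SE 0.76, 95% interval -1.68 to 1.47) for Psmb8 and 0.15 (SE 0.53) for Psmb10. Psmb9, at chr17:34182099-34187330, had counts of 3, 0 and 9 in DMSO+VIP and of 18, 9 and 12 in OCA+VIP, and the DMSO+VIP sum of 12 was under the floor of 18 counts per group (3 steps of 6 counts), so no fold is given. The floor equals 1.61 CPM in DMSO+VIP and 0.887 CPM in OCA+VIP and covers counting error only.

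RNA for the standard catalytic subunits exceeded that for their inducible counterparts in every library. Per exon length, Psmb9 made up 0% to 0.953% of the Psmb6 and Psmb9 pair in DMSO+VIP and 0.445% to 1.38% in OCA+VIP. Psmb10 made up 1.13% to 2.61% and 0.913% to 3.12% of its pair with Psmb7, and Psmb8 made up 1.24% to 2.32% and 0.536% to 2.54% of its pair with Psmb5. Summed over each group and divided by exon length, Psmb7 exceeded Psmb10 57.1-fold in DMSO+VIP and 44.7-fold in OCA+VIP, and Psmb5 exceeded Psmb8 56.5-fold and 50.1-fold. The ranges of the groups overlapped for all 3 pairs, and the shares were not tested.

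Of the tissue-restricted subunits, Psma8 was detected at a low level in all libraries and Psmb11 was at or near 0. Psma8, the alpha subunit of the testis proteasome, at chr18:14706151-14762299, was at 9.62, 15.7 and 9.91 CPM in DMSO+VIP and at 2.65, 7.69 and 4.65 CPM in OCA+VIP. The groups did not overlap, but the log2 fold change of -1.23 (SE 0.53) had an adjusted p of 0.14 by edgeR and of 0.043 by DESeq2. Psmb11, the thymus-specific beta subunit, had 7 counts in DMSO+VIP library 1 and 0 in the other 5 libraries.

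Factors that build, regulate or feed the proteasome were read out of the same fit. Of 21 tested assembly factors and associated proteins, none rose and 2 fell, beside 5.72% of all tested genes called higher and 6.04% lower. The median log2 fold change was 0.05. The PAC chaperones Psmg1 to Psmg4, which assemble the alpha ring, all had negative values, while 50.1% of all tested genes had positive ones. Psmg2 was called, from 46.5 ± 15.1 to 25.6 ± 11.7 CPM (SD, n = 3 each), at -0.87 with an adjusted p of 0.048 by edgeR that was lost in 5 of the 6 fits that left out 1 library. Psmg1, Psmg3 and Psmg4 were at -0.56, -0.32 and -0.40 and were not called. Pomp, the chaperone of the beta ring, was at 0.10, and Psmf1, an inhibitor of the core, went from 134 to 170 CPM on average (log2 fold change 0.33, adjusted p = 0.084 by edgeR).

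Nfe2l1, the gene for NRF1, fell. It lies at chr11:96817414-96829968 and stood at 355, 367 and 304 CPM in DMSO+VIP and at 225, 294 and 243 CPM in OCA+VIP. The highest OCA+VIP value, in library 2, lay just under the lowest control. The means were 342 ± 33.5 and 254 ± 35.6 CPM (SD, n = 3 each), which gave a log2 fold change of -0.45 (SE 0.12, 95% interval -0.70 to -0.19) with an adjusted p of 0.020 by edgeR. Leaving out DMSO+VIP library 1 or 2 or OCA+VIP library 1 or 3 ended the call, with adjusted p = 0.080, 0.099, 0.084 and 0.11. Of the 14 tested regulators of subunit transcription, Nfe2l1 was the 1 that fell and 4 rose: Maff (0.45), a small partner of NRF1-type factors, Bach1 (0.47), a repressor at the same elements, Nfyc (0.78), a subunit of NF-Y, and Stat3 (0.52), all as log2 fold changes. Their adjusted p values were 0.048, 0.015, 0.028 and 0.010 by edgeR, and each call was lost in 2 or more of the 6 fits that left out 1 library. Of all tested genes, 5.72% were called higher and 6.04% lower.

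**Figure D4:**
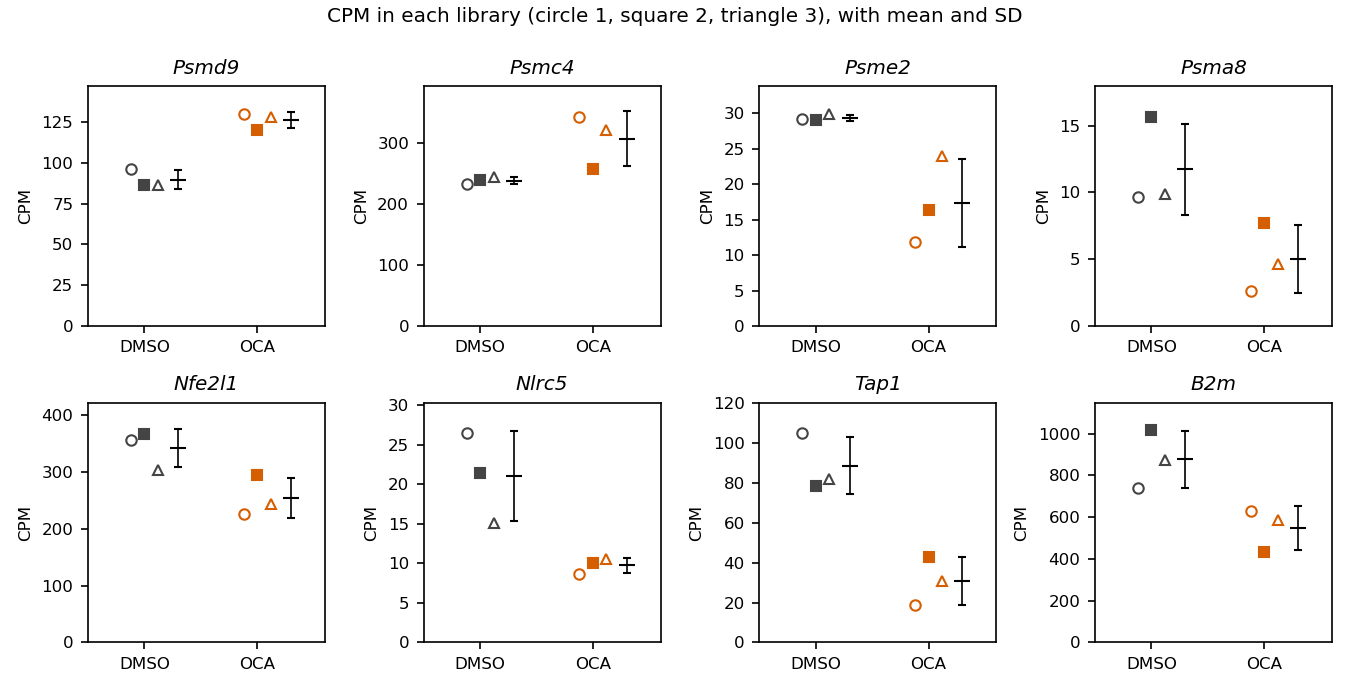
CPM in each library for 4 subunit genes (Psmd9, Psmc4, Psme2 and Psma8) and 4 related genes, with the mean and SD of each group of 3 libraries; circles, squares and triangles are libraries 1, 2 and 3. Psmd9 and Psmc4 are higher in all OCA+VIP libraries, the other genes are lower in all of them, and of the 8 only Psmd9, Nfe2l1, Nlrc5, Tap1 and B2m had an adjusted p under 0.05.

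The immunoproteasome acts in the interferon-responsive pathway that supplies peptides to MHC class I. Of 14 tested genes listed for that pathway 1 rose and 3 fell, beside 5.72% of all tested genes called higher and 6.04% lower. The median log2 fold change of the 14 was -0.32. Tap1, a subunit of the peptide transporter, fell from 105, 78.5 and 82.1 CPM to 18.9, 42.6 and 31.0 CPM, a log2 fold change of -1.53 (SE 0.21) with an adjusted p of 3.9e-05 by edgeR. Its start site lies 226 bases from that of Psmb9 on chromosome 17, on the opposite strand, and the genes do not overlap in the coordinates used for counting. Over all transcripts in the GENCODE annotation, exons of Psmb9 share 5.79% of their bases with Tap1. Psmb9 reads were too few to say how Psmb9 moved. Nlrc5, a transactivator of MHC class I genes, fell from 26.5, 21.5 and 15.1 CPM to 8.71, 10.1 and 10.5 CPM (log2 fold change -1.12, adjusted p = 0.035 by edgeR, lost in 5 of the 6 fits that left out 1 library). B2m, the light chain of MHC class I, fell (-0.68, adjusted p = 0.0068), and Tapbp, the peptide-loading chaperone tapasin, rose (0.95, adjusted p = 0.0075), both by edgeR. Those calls were lost without DMSO+VIP library 2 and without OCA+VIP library 1 in that order, with an adjusted p of 0.056 each. Irf1, an interferon factor, was not called (log2 fold change 0.36).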

How the data were processed

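PolyA RNA libraries (NEBNext Ultra kit, per the labels' protocols) were analysed from the authors' table of exon counts per gene. The deposited values are expected counts in steps of 0.5. The submitters' processing notes name mm10, STAR, HOMER and DESeq2 without versions or roles, and strand use and duplicate handling were not given in the sources used here. The other deposited columns used, exon length and genomic copies, are the authors'. Library numbers are those of the table's columns and could not be matched to the lettered replicates in the labels. No column of sample values was left unused (0).

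Counts were rounded, filtered (edgeR filterByExpr, minimum count 10, minimum total 15), normalised by TMM and tested two-sided with edgeR 4.0.16 quasi-likelihood F-tests in R 4.3.3, with Benjamini-Hochberg adjustment over 11286 genes, a threshold of 0.05 and 4 residual degrees of freedom. The common biological coefficient of variation was 0.198. CPM values are scaled to column totals. Intervals of 95% come from the moderated t distribution. limma 3.58.1 (voom), DESeq2 1.42.0, other scalings, filters, thresholds, a replicate block, counts divided by 6 and leaving out each library were alternatives, and the fitting code was tested on simulated data. Promoter sequences are from RefSeq (GRCm38.p6). Exon overlaps are from GENCODE and are shares of the exon bases of all annotated transcripts of a gene. Shared bases may therefore lie outside the exons that were counted.

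The members and gene lists were chosen with earlier results of these data known. Values per library are given for called members, Psmb5 to Psmb10, the Psme genes, and in each family the gene of highest level and those of highest and lowest fold change. From the lists, called genes are named, with Nfe2l1, Pomp, Psmf1, Irf1, Tap1 and Nlrc5 whatever their p. Some genes that this rule selects are counted in their lists but are not reported here by name.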

Additional observations from a re-analysis of the deposited data

How the results depend on the processing

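The number of genes called was 1328 by edgeR, 2245 by DESeq2 and 648 at a threshold of 0.01, and ranged from 737 to 1478 when 1 library was left out (877, 737 and 751 after removal of DMSO+VIP library 1, OCA+VIP library 1 and OCA+VIP library 3). Members called higher numbered 1, but 2 with DESeq2, with library-size scaling, without a filter and at a threshold of 0.1, 0 at 0.01, and 0 to 7 when 1 library was left out, with 7 without OCA+VIP library 2. Members called lower numbered 0, but 2 with DESeq2, 1 with counts divided by 6, with voom and at a threshold of 0.1, and 0 to 1 when 1 library was left out. The causes were not tested. Correlations of same-numbered deviations between the groups were -0.035, -0.050 and 0.030, and those of other numbers ran from -0.031 to 0.078. With 3 libraries per group, these values cannot settle whether the numbers paired the groups. With a replicate block in edgeR, 1118 genes, 1 member higher (Psmd9, adjusted p = 0.035) and 0 lower were called. Of the 41 tested members, 22 changed sign in at least 1 fit that left out a library, 11 of them without OCA+VIP library 2, and none of the 22 was called with all libraries. Under the other alternatives 4 changed sign: Psmb8 (0.067 with voom), Psmc3 (-0.00059 with counts divided by 6, -0.023 with upper-quartile scaling), Psma7 (-0.0002 and -0.01 in the same fits) and Psmd5 (0.026 with voom, 0.025 with counts divided by 6). Among genes with printed library or list values, leaving out 1 library gave -0.026 to 0.28 for Pomp, -0.11 to 0.24 for Psma6, -0.085 to 0.505 for Psmb10, -0.23 to 0.11 for Psmb4, -0.17 to 0.13 for Psmb6, -0.15 to 0.14 for Psmb7, -0.47 to 0.29 for Psmb8, -0.069 to 0.15 for Psmc3, -0.19 to 0.0502 for Psmc6, -0.22 to 0.0541 for Psmd8, -0.41 to 0.25 for Psme1 and -0.032 to 0.12 for Psme4. Every called gene named here kept its sign under the alternatives run, and Ubxn7 and Tap1 also kept their call. With counts divided by 6, immunoproteasome genes were too low to test.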

Other observations

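Genes for ubiquitin, its activation and the p97 segregase, which extracts tagged proteins before the proteasome degrades them, were a further group. Of 16 tested genes 2 rose and 1 fell, beside 5.72% of all tested genes called higher and 6.04% lower. The median log2 fold change of the 16 was 0.11. Ubxn7, a p97 adaptor, rose from 50.7, 41.7 and 48.4 CPM in DMSO+VIP to 80.8, 100.7 and 91.1 CPM in OCA+VIP (log2 fold change 0.93, adjusted p = 0.00036 by edgeR). Nsfl1c, the p97 cofactor p47, rose from 116, 136 and 128 CPM to 217, 159 and 166 CPM (log2 fold change 0.50, adjusted p = 0.029 by edgeR), without overlap between groups. Rps27a, which encodes ubiquitin fused to a ribosomal protein, fell from 205, 257 and 245 CPM to 174, 134 and 205 CPM (log2 fold change -0.47, adjusted p = 0.045 by edgeR). The call for Nsfl1c was lost in 4 of the 6 fits that left out 1 library and that for Rps27a in 5.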
